A study of Mus musculus with 21 samples.

Results

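The Wnt signalling genes described here are 10: the ligands Wnt2, Wnt4, Wnt5a, Wnt7b and Wnt11, the secreted antagonists Wif1, Sfrp1 and Dkk3, and the pathway target genes Axin2 and Lef1. They were taken by symbol from the 25035 genes listed for either of the sorted lung cell populations, and each of the 10 is among the 20004 genes listed for both. The samples were epithelial cells and fibroblasts sorted from C57BL/6 lungs; the mice bore the Col1a2-GFP transgene, a fluorescent reporter under the promoter of a collagen gene. Every group, both cell types and all stages, carried this transgene and no other allele or treatment is named. Epithelial cells were Epcam-positive and negative for the lineage markers CD31, CD45, CD146 and Ter119; the labels from P0.5 on also name a GFP-negative gate, the E18.5 labels do not, and the sorting protocol gives the GFP-negative gate for epithelial cells in general. Fibroblasts were lineage-negative, Epcam-negative and GFP-positive, so the population is the set of cells in which the Col1a2 reporter was on. Both cell types had 2 libraries at embryonic day 18.5 (E18.5) and at postnatal days 0.5, 2, 7 and 28 (P0.5 to P28), and P56 was sampled in fibroblasts with 1 library. Replicates carry numbers but no separate animals are named for them, so the p-values below measure the spread between these libraries, which may be technical.

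Wnt ligands are secreted lipid-modified proteins that bind Frizzled receptors together with coreceptors. In the canonical branch this stabilises beta-catenin, which joins TCF and LEF factors on DNA and switches on target genes, Axin2 among them; other branches act through receptors such as Ror2 without beta-catenin. In the lung, Wnt ligands from the mesenchyme and from the epithelium are known to take part in specifying the organ, in its growth and branching, and in maintaining alveolar type 2 cells.

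Stretches of 250 bases directly before the RefSeq start sites of Axin2, Wnt2 and Wnt11 are shown. Axin2 and Wnt2 carry most of the results below and Wnt11 is the member whose window holds a TCF/LEF motif. The sequences are RefSeq's, on GRCm38.p6, printed 5′ to 3′ on the strand of the gene, and capitals mark the motif. Axin2 lies on the plus strand (chr11:108920099-108920348), Wnt2 on the minus strand (chr6:18030446-18030695) and Wnt11 on the plus strand (chr7:98834862-98835111).
Axin2: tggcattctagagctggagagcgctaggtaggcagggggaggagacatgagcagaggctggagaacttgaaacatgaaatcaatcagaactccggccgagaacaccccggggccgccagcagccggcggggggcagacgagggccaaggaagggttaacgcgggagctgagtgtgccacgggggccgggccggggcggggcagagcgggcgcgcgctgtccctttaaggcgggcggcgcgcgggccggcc
Wnt2: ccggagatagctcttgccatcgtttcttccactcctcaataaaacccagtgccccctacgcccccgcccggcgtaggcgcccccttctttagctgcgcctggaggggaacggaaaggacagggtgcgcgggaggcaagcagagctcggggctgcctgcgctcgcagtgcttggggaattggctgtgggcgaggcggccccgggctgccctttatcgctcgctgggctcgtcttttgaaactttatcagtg
Wnt11: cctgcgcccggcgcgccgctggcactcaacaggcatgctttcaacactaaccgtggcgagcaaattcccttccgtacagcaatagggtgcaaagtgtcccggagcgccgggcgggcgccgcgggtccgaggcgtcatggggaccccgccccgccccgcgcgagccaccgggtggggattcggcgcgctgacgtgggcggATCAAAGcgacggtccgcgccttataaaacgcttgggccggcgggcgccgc
The motif searched was CTTTGAT or CTTTGAA, the core bound by TCF/LEF factors, on either strand, in windows of 300 bases that reach 50 bases past the start. RefSeq windows were matched for 6 of the 10 genes (Wnt2, Wnt4, Wnt11, Wif1, Axin2 and Lef1, 10 windows in all). The motif stood in 1 of the 10 windows, that of Wnt11, as ATCAAAG beginning 51 bases before the start. Of all 32851 promoter windows of this length, 8.65% hold it.

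On GRCm38, the build called mm10 that the submitters' processing notes name, the GENCODE M21 annotation places Wnt2 at chr6:17988940-18030585 (minus strand), Wnt5a at chr14:28504750-28527448 (plus), Wnt7b at chr15:85535437-85582473 (minus), Sfrp1 at chr8:23411502-23449632 (plus), Axin2 at chr11:108920349-108950783 (plus) and Dkk3 at chr7:112116017-112159057 (minus). The GENCODE start of Wnt2, at 18030585, falls inside the stretch shown above, which precedes the RefSeq start. All 10 are protein-coding genes. Exons of Axin2, Wnt5a, Wnt7b and Lef1 share bases with an annotated antisense gene and those of Wnt11 with a processed pseudogene on the other strand, and the sources used here do not say whether tags were counted by strand, so reads of the partners cannot be told apart. Of these partners only AU022754, antisense to Wnt7b, is listed in the tables. Its deposited values in the epithelium were 24.7 ± 12.4 (SD, n = 2) at E18.5 and 5.58 ± 3.52 at P28.

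Libraries held 2146071 to 5729829 reads over 14980 to 17580 detected genes. The deposited values are normalised tag counts, and 3 reads, the limit that a count of 0 allows, corresponded to values of 0.403 to 1.37 depending on the library; this limit covers counting error only. Defining markers matched the labels: the adhesion gene Epcam averaged 131 CPM (reads scaled to library size) in epithelial and 0.0647 in fibroblast libraries, and the collagen gene Col1a2 17.7 and 2334. The 8 mesenchymal markers averaged 0.602 to 5.46% (median 1.02%) of their fibroblast level in the epithelium. The highest share was that of Vim, whose epithelial mean was 696 CPM, against 25.3 CPM for Col3a1, the next highest mean. The mesenchymal marker sums of epithelial libraries given below were thus, on average, mostly Vim. The P56 fibroblast library stood apart from the other fibroblast libraries, with a summed erythroid marker value of 0.134 against 93.5 to 4230 and 4 of 5 erythroid markers at 0. Its summed mesenchymal marker value was 12264, against 39917 to 40000.4 at P28 and 13602 to 14964 at E18.5. In bulk libraries such as these, fewer cells of a type and less RNA per cell cannot be told apart.

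The first comparison was between the cell types over the 5 shared stages. Wnt2, Wnt5a, Sfrp1, Dkk3 and Axin2 were lower in the epithelium and Wnt7b was higher, with no overlap between the 10 epithelial and 10 fibroblast libraries for any of the 6. Wnt4 was also lower in the epithelium, with overlapping libraries. The levels are CPM of reads over the genes listed in both populations, scaled by TMM (trimmed mean of M values), and the test was limma on log2(CPM + 1) with Benjamini-Hochberg adjustment, where an adjusted p under 0.05 counted as passing. Of the 10 genes, 9 passed the filter on low values and 7 of them passed the test, 6 lower in the epithelium and 1 higher; of all 13386 genes tested, 62.4% passed, 29.9% lower and 32.5% higher. Lower calls thus made up more of the members than of all genes. The filter asked for 3 CPM or more in at least 2 of the 20 libraries. Wnt2, Wnt4 and Dkk3 reached 3 CPM in no epithelial library, Sfrp1 in 1, and Wnt7b in no fibroblast library. These genes thus passed the filter through the cell type where they were higher, so their selection was not independent of the difference tested. The members were chosen with earlier results of these data known, and no test of the set was run. Differences on this scale understate those of genes with low values.

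**Figure D1:**
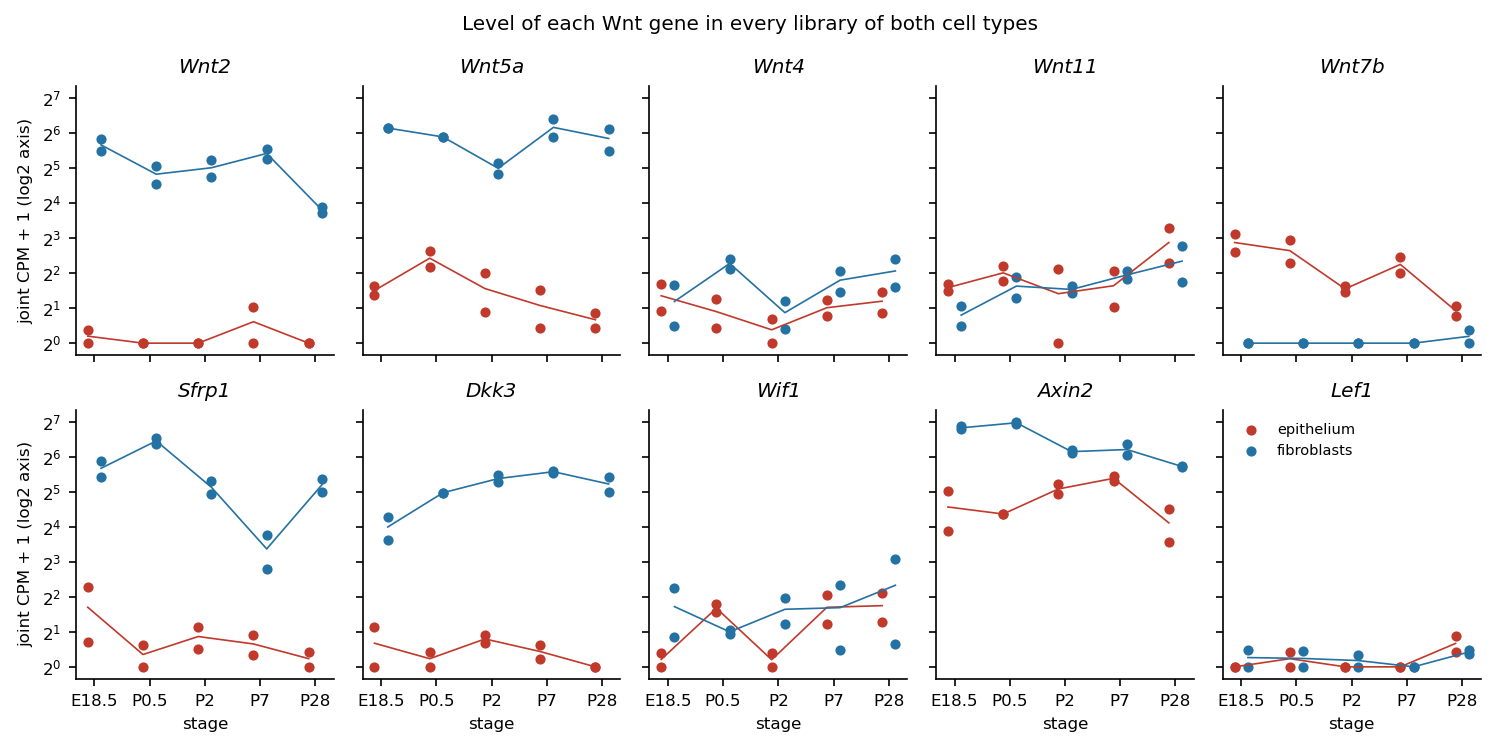
CPM + 1 on a log2 axis against stage for the 10 Wnt genes in the 10 epithelial and 10 fibroblast libraries; points are libraries and lines join the stage means. Wnt2, Wnt5a, Sfrp1, Dkk3 and Axin2 are separated with fibroblasts higher, Wnt7b with epithelium higher, and Wnt4, Wnt11, Wif1 and Lef1 overlap.

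Among the ligands, Wnt2, a mesenchymal ligand known for its part in lung specification, ranged from 12.2 to 55.6 CPM in fibroblasts (median 34.6, n = 10). In the epithelium it ranged from 0 to 1.06 CPM (median 0), on 7 reads in all. The difference, epithelium minus fibroblasts, was -4.79 on the log2(CPM + 1) scale (SE 0.17, adjusted p = 4.07e-16, limma). Wnt5a, which signals largely without beta-catenin, ranged from 27.2 to 83.7 CPM in fibroblasts (median 58.4) and from 0.352 to 5.26 CPM in the epithelium (median 1.72), a log2 difference of -4.40 (SE 0.18, adjusted p = 2.76e-15). The epithelial level of Wnt5a was 3.44% of the fibroblast mean, and that of Wnt2 was 0.415%. Of the 8 mesenchymal markers only Vim (5.46%) lay above the Wnt5a level, and the next was Postn at 1.68%. The P0.5 epithelial libraries held 6.11 and 9.17% for Wnt5a and 1.90 and 1.65% for the summed mesenchymal markers. At P28 these were 0.616 and 1.44% for Wnt5a and 8.66 and 9.41% for the sum. The part of carried-over fibroblast RNA in the epithelial levels of Wnt5a and Wnt2 was not tested.

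Wnt7b, a ligand of the lung epithelium, went the other way. It ranged from 0.706 to 7.61 CPM in epithelial libraries (median 3.42) and was at 0 in every fibroblast library of these stages except the first at P28, which held a single read. Epithelial libraries held 127 Wnt7b reads and fibroblast libraries 1, a ratio of 115 per read counted (95% exact interval 20.3 to 4590, counting error only). The log2 difference was 2.00 (SE 0.17, adjusted p = 1.03e-09). The antisense partner AU022754 was also higher in the epithelium at E18.5, at 15.9 and 33.5 in the libraries against 1.28 and 2.53 in fibroblasts on the deposited scales, and its part in the Wnt7b values was not tested.

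Wnt4, best known from kidney and reproductive tract development, averaged 1.01 ± 0.669 CPM (SD, n = 10) in the epithelium and 2.32 ± 1.45 in fibroblasts, with a log2 difference of -0.66 (SE 0.22, adjusted p = 0.0145). This call was lost with DESeq2, where the adjusted p was 0.0750. Wnt11, a ligand linked to beta-catenin-independent signalling and cell movement, averaged 3.03 ± 2.36 CPM in the epithelium and 2.33 ± 1.47 in fibroblasts, a log2 difference of 0.17 (SE 0.26) that missed the threshold at an adjusted p of 0.569. The libraries of both genes overlapped widely.

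Among the antagonists, Sfrp1, a secreted protein with a Frizzled-like domain that binds Wnts, ranged from 5.98 to 91.5 CPM in fibroblasts (median 39.6) and from 0 to 3.87 in the epithelium (median 0.494). Its log2 difference was -4.44 (SE 0.21, adjusted p = 4.09e-14, limma). Dkk3, a divergent member of the Dickkopf family of secreted proteins, ranged from 11.4 to 47.4 CPM in fibroblasts (median 34.3) and from 0 to 1.19 in the epithelium (median 0.263), with a log2 difference of -4.62 (SE 0.17, adjusted p = 9.33e-16). Both genes were higher in every fibroblast library than in any epithelial one, and their epithelial means were 1.90% and 1.10% of the fibroblast means. Wif1, which binds Wnts outside the cell, averaged 1.42 ± 1.27 CPM in the epithelium and 2.34 ± 2.25 in fibroblasts, and the log2 difference of -0.41 (SE 0.30, adjusted p = 0.247) was within the spread.

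Axin2, a scaffold of the complex that degrades beta-catenin and a widely used readout of canonical Wnt signalling, was detected in every library of both cell types. It ranged from 10.8 to 42.8 CPM in the epithelium (median 25.8) and from 50.9 to 127 in fibroblasts (median 76.3). The log2 difference was -1.71 (SE 0.14, adjusted p = 3.60e-10, limma). Single epithelial libraries held 12.4 to 49.5% of the fibroblast mean of Axin2, while their summed mesenchymal markers were at 0.640 to 9.41% of the fibroblast mean; the part of fibroblast RNA in the epithelial Axin2 level was not tested. Lef1, a DNA-binding partner of beta-catenin, gave 5 reads over the 10 epithelial and 5 over the 10 fibroblast libraries of these stages, with no library above 0.864 on the deposited scale, and its level was not measurable at this depth.

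**Figure D2:**
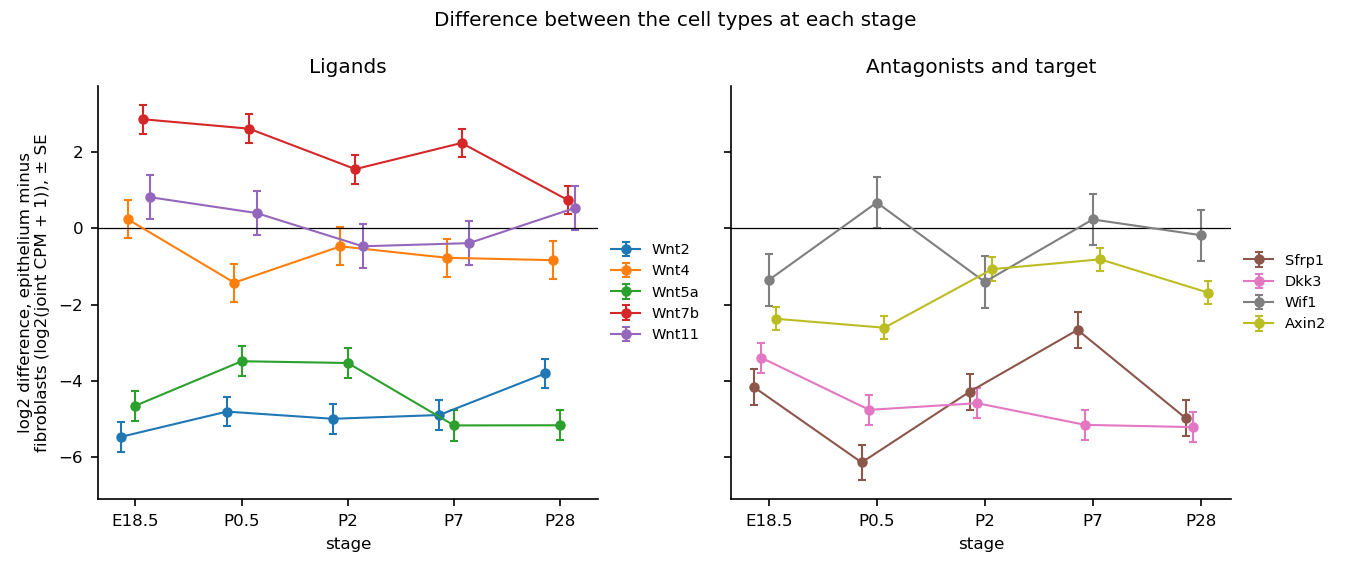
Log2 difference, epithelium minus fibroblasts (log2(CPM + 1) scale), with its standard error, at each of the 5 shared stages for the Wnt genes tested. Axin2 lies closest to 0 at P7 (-0.82) and farthest at P0.5 (-2.61), and the Wnt7b difference is 2.85 at E18.5 and 0.74 at P28.

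Stage by stage, the cell-type difference passed for 6 members at E18.5 (38.2% of all genes tested passed there), 7 at P0.5 (41%), 6 at P2 (41%), 6 at P7 (35.5%) and 5 at P28 (38.1%). Wnt2, Wnt5a, Sfrp1, Dkk3 and Axin2 were lower in the epithelium at each of the 5 stages. For Axin2 the log2 difference was -2.37 at E18.5, -2.61 at P0.5, -1.07 at P2, -0.82 at P7 and -1.69 at P28 (SE 0.31 each). The P7 call of Axin2 (adjusted p = 0.0423) was lost when any of the 4 P7 libraries was left out and with no filter on low values (adjusted p = 0.0665), and the P2 call was lost without the second epithelial P2 library (adjusted p = 0.0597). Wnt7b was higher in the epithelium from E18.5 (2.85, SE 0.38) to P7 (2.23), and at P28 its difference of 0.74 missed the threshold (adjusted p = 0.137). Wnt4 passed at P0.5 alone (-1.43, adjusted p = 0.0265), and that call was lost without the first epithelial or either fibroblast P0.5 library.

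Across the stages in fibroblasts, Wnt2, Wnt5a, Sfrp1, Axin2 and Dkk3 changed. In a moderated F test over E18.5 to P28 (limma on log2(deposited value + 1)), these 5 of the 8 members that passed the filter were called, with adjusted p of 0.000158 for Wnt2, 0.00453 for Wnt5a, 1.54e-06 for Sfrp1, 0.000137 for Axin2 and 0.000562 for Dkk3. Of all 11954 genes tested, 48.9% passed the same test. The shapes differed from gene to gene and are given in turn, on the deposited scale. The Wnt5a call was lost without the second P2 library (adjusted p = 0.0813) and with no filter on low values (0.066).

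**Figure D3:**
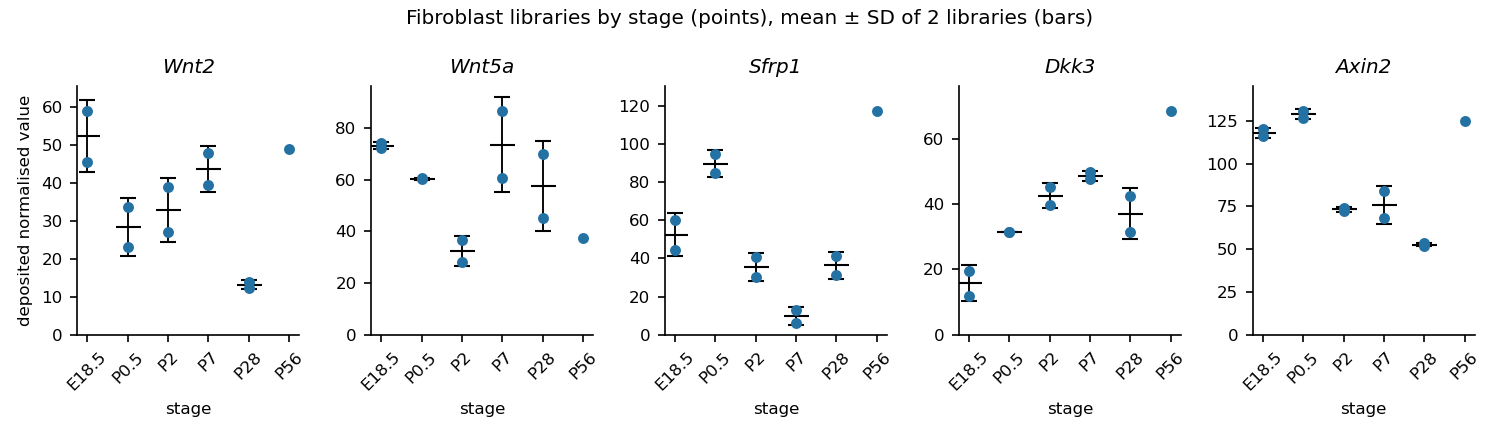
Deposited normalised values of Wnt genes in fibroblasts by stage; points are libraries and bars give the mean ± SD of 2 libraries (P56 is 1 library with no bar). Wnt2 is lowest at P28, Sfrp1 is lowest at P7, and Dkk3 is lowest at E18.5.

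Wnt2 in fibroblasts stood at 45.5 and 58.9 at E18.5, 23.0 and 33.7 at P0.5, 38.7 and 26.9 at P2, 47.8 and 39.2 at P7, 12.4 and 14.0 at P28, and 48.7 in the P56 library. Both P28 libraries lay below all 9 others. From E18.5 to P28 Wnt2 fell by 1.90 on the log2 scale (SE 0.28, adjusted p = 2.73e-05) and from P7 to P28 it fell by 1.65 (SE 0.28, adjusted p = 0.000245). From E18.5 to P0.5 it fell by 0.87 (adjusted p = 0.0386), a call that was lost when any of the 4 libraries was left out and with no filter on low values (adjusted p = 0.120). In order of level the stages ran E18.5, P56, P7, P2, P0.5 and P28, and the libraries of E18.5 and P56 and those of P2 and P0.5 overlapped.

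Wnt5a in fibroblasts followed another course, with values of 72.2 and 74.2 at E18.5, 60.1 and 60.6 at P0.5, 36.6 and 28.2 at P2, 86.7 and 60.5 at P7, 45.2 and 69.8 at P28, and 37.3 at P56. The P2 libraries were lower than all others. Wnt5a fell by 0.89 from P0.5 to P2 (SE 0.25, adjusted p = 0.0205) and rose by 1.15 from P2 to P7 (SE 0.25, adjusted p = 0.00844). The first of these calls was lost without either P0.5 library or the second P2 library, and the second without the second P2 or the first P7 library; both were lost with no filter on low values (adjusted p = 0.103 and 0.0948).

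Wnt4 and Wnt11 were low in fibroblasts. Wnt4 lay between 0.355 and 4.49 in the 10 libraries up to P28 and at 13.4 in the P56 library. Wnt11 stood at 1.12 and 0.427 at E18.5 and at 5.91 and 2.39 at P28, and rose by 1.48 on the log2 scale (SE 0.51, adjusted p = 0.0313). That Wnt11 call was lost with DESeq2 (adjusted p = 0.141), with no filter on low values (0.0732) and without the second E18.5 or the first P28 library. Wnt11 reached the filter's value of 3 only in the second P7, the first P28 and the P56 library, so it was tested only through late libraries where it was high.

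Sfrp1 had the lowest F-test p of the members in fibroblasts. Its values were 60.4 and 44.4 at E18.5, 84.6 and 94.7 at P0.5, 40.9 and 30.4 at P2, 13.1 and 6.26 at P7, 41.3 and 31.5 at P28, and 117 at P56. The P7 libraries were below and the P56 library above all others, and only the P2 and P28 libraries overlapped between neighbours in the order of levels. Sfrp1 fell by 1.32 from P0.5 to P2 (SE 0.30, adjusted p = 0.00472) and by 1.84 from P2 to P7 (SE 0.30, adjusted p = 0.000616). It then rose by 1.87 from P7 to P28 (SE 0.30, adjusted p = 0.000142). The P0.5 to P2 call was lost without the second library of either stage, and both of these falls missed the threshold with no filter on low values (adjusted p = 0.0788 and 0.0586).

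Dkk3 was lowest at E18.5, at 11.8 and 19.6, and stood at 31.5 and 31.4 at P0.5, 39.8 and 45.2 at P2, 47.5 and 49.7 at P7, 42.5 and 31.5 at P28, and 68.5 at P56. No later library reached down to the E18.5 libraries. Dkk3 rose by 0.998 from E18.5 to P0.5 (SE 0.27, adjusted p = 0.0158) and by 1.21 from E18.5 to P28 (SE 0.27, adjusted p = 0.00162). The first call was lost without the first E18.5 library or either P0.5 library, and with no filter on low values (adjusted p = 0.0707). Wif1 ranged from 0.418 to 7.58 over the 11 fibroblast libraries and passed in no comparison between stages.

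Axin2 in fibroblasts fell between P0.5 and P2 and was lowest at P28. Its values were 120 and 116 at E18.5, 131 and 127 at P0.5, 72.2 and 74.3 at P2, 83.8 and 68.1 at P7, 52.0 and 53.4 at P28, and 125 at P56. The libraries of E18.5, P0.5 and P56 all lay above those of P2, P7 and P28. Those of P28 in turn lay below those of P2 and P7, but the P7 to P28 change of -0.51 missed the threshold (SE 0.20, adjusted p = 0.0721, limma). Axin2 fell by 0.81 from P0.5 to P2 (SE 0.20, adjusted p = 0.00777) and by 1.15 from E18.5 to P28 (SE 0.20, adjusted p = 0.000149). The first call was lost without either P0.5 library or the first P2 library.

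In all, 4 members passed between E18.5 and P28 in fibroblasts (33.6% of all genes tested passed), 2 between E18.5 and P0.5 (15.4%), 3 between P0.5 and P2 (16.9%), 2 between P2 and P7 (6.64%) and 2 between P7 and P28 (20.8%). The P56 arm is a single library that the fit takes to vary like the other groups, so stage and library cannot be told apart there. Against P28, 5 members were higher in this library and none lower: Wnt2 by 1.81 (SE 0.34, adjusted p = 0.000469), Axin2 by 1.23 (SE 0.24, adjusted p = 0.000702), Sfrp1 by 1.68 (SE 0.36, adjusted p = 0.00175), Wnt4 by 1.83 (SE 0.66, adjusted p = 0.0421) and Dkk3 by 0.89 (SE 0.33, adjusted p = 0.0458). Of all genes tested 31.2% passed this comparison, 12.2% higher and 19.1% lower. The median over all genes was -0.116 on the deposited scale and 0.063 with TMM scaling, which moved the split of calls from 1455 higher and 2278 lower to 1894 and 1815; the 5 members remained higher under both. The Dkk3 call was lost without the second P28 library and with no filter on low values (adjusted p = 0.105), and the Wnt4 call without the first and with no filter (0.125), and the part of the lower mesenchymal marker sum of this library in these results was not tested.

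In the epithelium 5 of the 10 members passed the filter (Wnt5a, Wnt7b, Wnt11, Wif1 and Axin2), and 3 of them were called in the F test over the stages, Wnt7b (adjusted p = 0.0142), Wif1 (0.0304) and Axin2 (0.0416); 35.3% of the 12143 genes tested passed it. Wnt7b stood at 7.78 and 5.37 at E18.5, 4.04 and 6.79 at P0.5, 1.82 and 2.31 at P2, 3.18 and 4.76 at P7, and 0.772 and 1.15 at P28. Both P28 libraries were below all others and, like those of P2, below the filter's value of 3. From E18.5 to P28 Wnt7b fell by 1.94 on the log2 scale (SE 0.43, adjusted p = 0.00464), a call kept in all 11 alternatives that could be fitted. Over the same span the summed epithelial markers went from 9060 to 9502 down to 1878 to 2013. On average over the 10 epithelial libraries, these markers were mostly Krt19 (2815 CPM), against 987 for Nkx2-1, 180 for Cdh1 and 131 for Epcam. The alveolar type 1 markers went from 4021 to 4371 down to 2599 to 3270, and the type 2 markers from 8088 to 8569 up to 24843 to 26021. The leukocyte markers rose from 243 to 362 up to 4101 to 4503. Averaged over the 10 epithelial libraries, the leukocyte markers were mostly Lyz2 (1014 CPM), against 185 for Tyrobp, the next highest mean, and 3.85 for Ptprc. The mesenchymal markers, mostly Vim at P28, rose from 377 to 402 up to 2298 to 2384. The part of these shifts in the Wnt7b fall was not tested. The F-test call of Wnt7b was lost without the first P28 library, with DESeq2 (adjusted p = 0.0985) and with no filter on low values (0.053), that of Wif1 in 8 of 15 alternatives (the second E18.5, either P0.5, the first P2 or the first P28 library left out among them), and that of Axin2 in 10 of 18 (any P0.5, P2 or P7 library or the second P28 library left out among them).

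**Figure D4:**
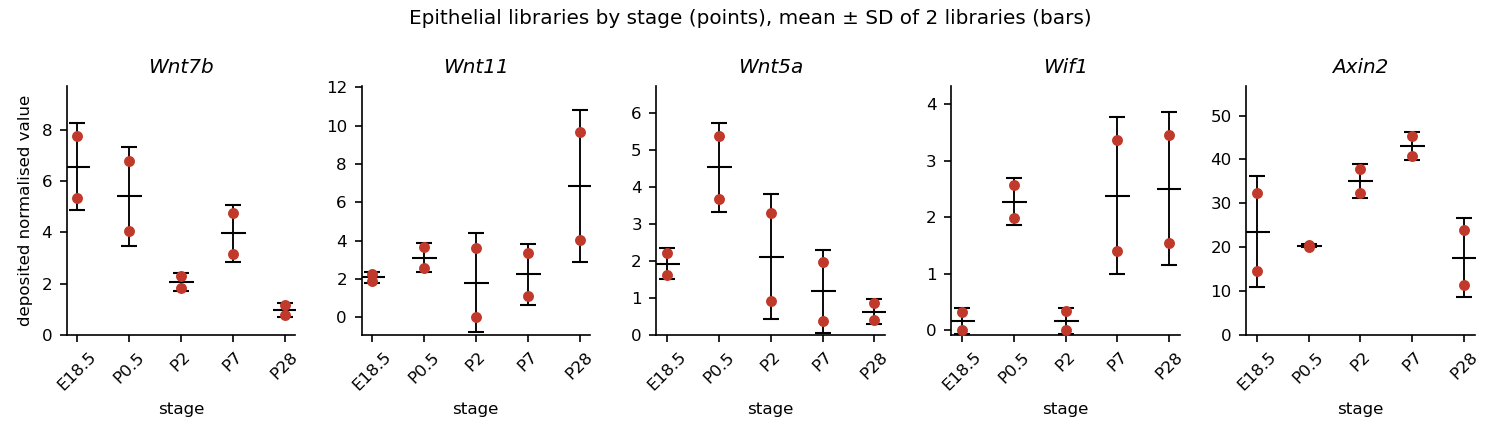
Deposited normalised values of Wnt genes in the epithelium by stage; points are libraries and bars the mean ± SD of 2 libraries. Wnt7b is lowest at P28, and Axin2 is highest at P7, where its libraries stand at 45.4 and 40.8.

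Epithelial Axin2 was highest at P7, with values of 32.4 and 14.5 at E18.5, 20.6 and 20.1 at P0.5, 37.8 and 32.3 at P2, 45.4 and 40.8 at P7, and 23.9 and 11.2 at P28. Both P7 libraries were above all others. From P7 to P28 Axin2 fell by 1.33 (SE 0.37, adjusted p = 0.0398), the single member called in that step, where 7.28% of all genes tested passed. The call was lost without either P7 library, without the second P28 library and with a pseudocount of 0.25 (adjusted p = 0.0501) or no filter on low values (0.0962). At P28 the epithelial libraries also had their highest leukocyte marker sums, 4101 to 4503 against 1227 to 1441 at P7. These sums were mostly Lyz2 on average over the epithelial libraries. Their mesenchymal sums, mostly Vim at P28, were highest there too, 2298 to 2384 against 163 to 171. The part of both in the lower Axin2 value was not tested.

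Wif1 was at 0.324 and 0 in the E18.5 epithelium, at 2.57 and 1.98 at P0.5, at 0 and 0.330 at P2, at 3.36 and 1.40 at P7, and at 1.54 and 3.46 at P28. From E18.5 to P28 it rose by 1.55 (SE 0.52, adjusted p = 0.0406), on 55 reads over all epithelial libraries, and this call was lost with DESeq2 (adjusted p = 0.152), with no filter on low values (0.0616) and without either E18.5 library or the first P28 library. Wif1 reached the filter's value of 3 only in the first P7 and the second P28 library, so it was tested only through late libraries where it was high. Wnt7b and Wif1 were the 2 members called between E18.5 and P28, where 24.9% of all genes tested passed. Wnt11 stood at 9.65 and 4.03 at P28 and between 0 and 3.68 before, and passed in no step. Wnt5a was highest at P0.5, at 3.67 and 5.37, and also passed in no step. None of the members passed from E18.5 to P0.5, P0.5 to P2 or P2 to P7 with limma, edgeR or DESeq2 (14.3%, 8.82% and 3.71% of all genes tested passed with limma), while 1, 2 and 1 of them had an unadjusted limma p under 0.05.

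Whether the change from E18.5 to P28 differed between the cell types was tested with an interaction term. In limma it passed for 3 members, where 15.1% of all genes tested passed: Wnt7b at -2.12 (SE 0.54, adjusted p = 0.00957), Dkk3 at -1.82 (SE 0.55, adjusted p = 0.0301) and Wnt2 at 1.66 (SE 0.55, adjusted p = 0.0442), as epithelial minus fibroblast change. Wnt7b gave 1 read in all fibroblast libraries, and Dkk3 and Wnt2 gave 12 and 7 reads in all epithelial libraries, so these genes passed the filter through the other cell type alone and their terms follow its values. The Dkk3 call was lost without the second epithelial E18.5 library, either epithelial P28 library or the first fibroblast library of E18.5 or P28, and the Wnt2 call without any of the 8 libraries of these stages. With edgeR and DESeq2 no member passed, and with edgeR the Wnt2 term was -0.36 (adjusted p = 0.784). For Axin2, well detected in both cell types, the term of 0.68 missed the threshold (adjusted p = 0.331).

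The rest of the pathway was read from a list of 81 other Wnt genes, of which 71 are listed for both cell types and 60 passed the filter. In the comparison of cell types 43 of these 60 passed, 14 higher and 29 lower in the epithelium (over all genes tested 62.4% passed, 32.5% higher and 29.9% lower), with a median log2 difference of -0.28 against 0.0056 over all genes tested. The members' own median, over the 9 that passed the filter, was -1.71. As among the members, genes near 0 in 1 cell type, such as Wnt3a and Fzd6 in fibroblasts, passed the filter through the other.

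**Figure D5:**
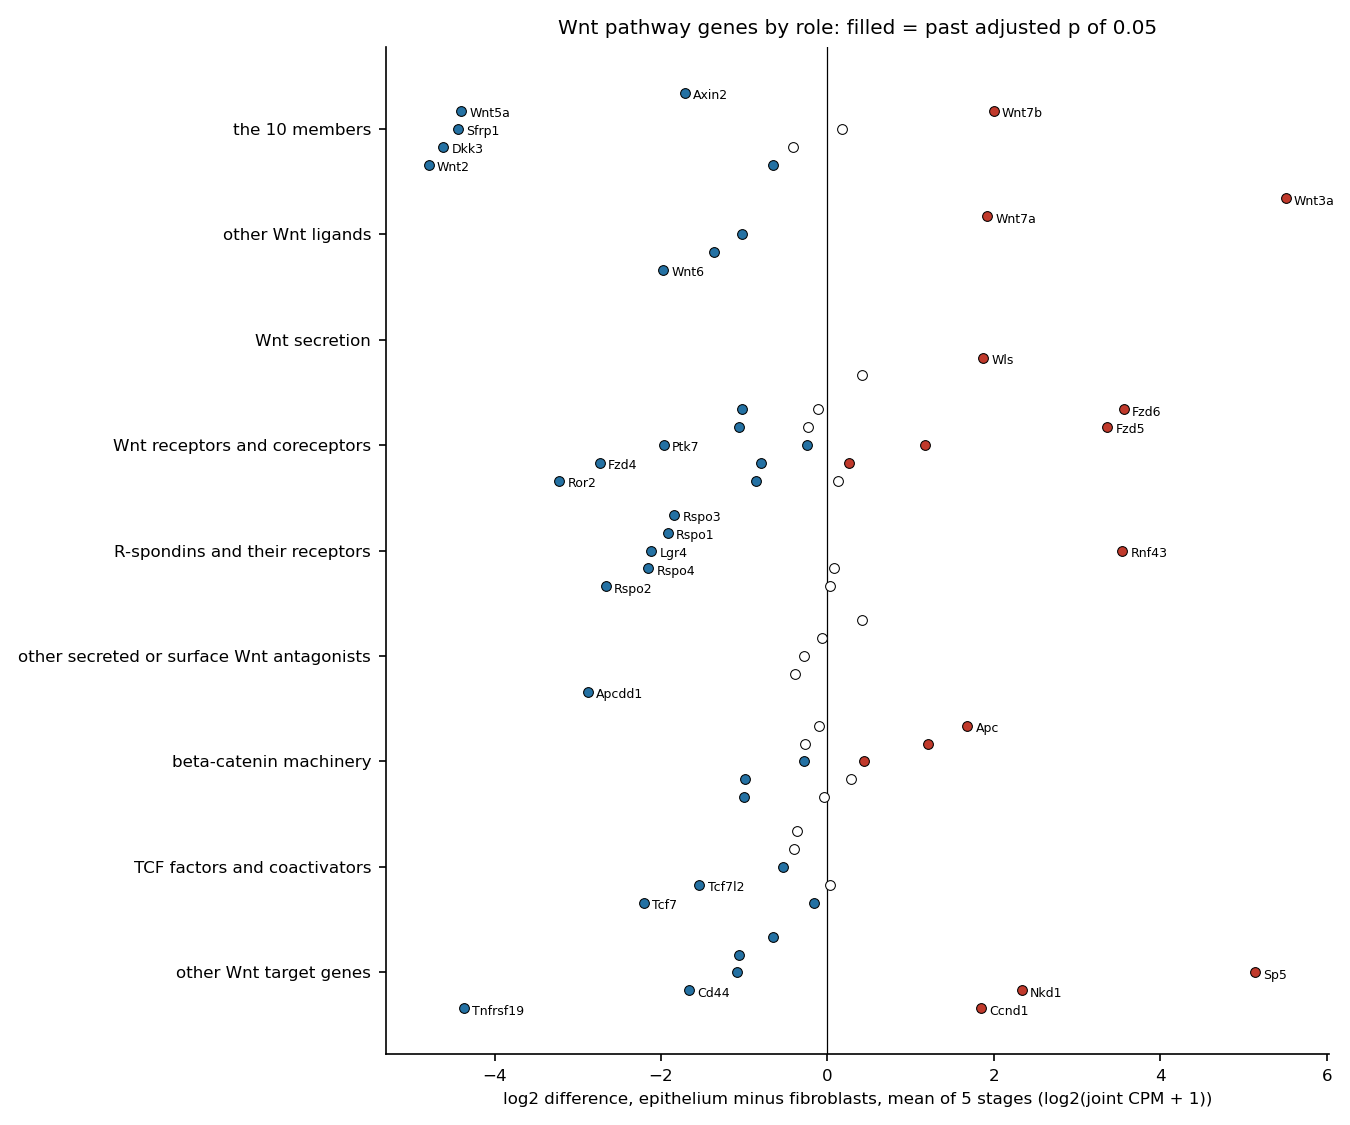
Log2 difference, epithelium minus fibroblasts over 5 stages (log2(CPM + 1) scale), of the Wnt genes that passed the filter, by role; filled points passed an adjusted p of 0.05. Wnt3a (5.51) and Sp5 (5.14) lie at the epithelial end, and Wnt2 (-4.79) and Dkk3 (-4.62) at the fibroblast end.

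Among the other ligands 5 of 14 passed the filter and all 5 passed the test, 2 higher and 3 lower in the epithelium, where 62.4% of all genes tested passed. Wnt3a, a canonical ligand, averaged 56.0 ± 25.4 CPM in epithelial and 0.198 ± 0.513 in fibroblast libraries (SD, n = 10 each; log2 difference 5.51, adjusted p = 3.2e-16). Wnt7a, the closest relative of Wnt7b, averaged 3.27 ± 1.76 and 0.0362 ± 0.114 CPM (1.92), and so had the same side as Wnt7b. Wnt6 was on the fibroblast side at 0.402 ± 0.583 and 4.33 ± 1.31 CPM (-1.98), as were Wnt9a and Wnt5b. Wls, the carrier that brings Wnts to the cell surface, was higher in the epithelium (39.8 ± 6.89 and 10.5 ± 3.49 CPM, log2 difference 1.87).

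Of the receptors and coreceptors 12 of the 15 that passed the filter passed the test, 4 higher and 8 lower in the epithelium. Over all genes tested 62.4% passed, 32.5% higher and 29.9% lower. Fzd5 (403 ± 105 and 42.8 ± 28.3 CPM, log2 difference 3.36) and Fzd6 (12.3 ± 5.50 and 0.0305 ± 0.0963, 3.56) were epithelial. Fzd4 (-2.74), Ptk7 (-1.97) and Ror2 (13.2 ± 12.1 and 82.9 ± 26.0 CPM, -3.22), the receptor through which Wnt5a is known to act, were on the fibroblast side. R-spondins, secreted amplifiers of Wnt signalling, were all 4 lower in the epithelium, Rspo2 among them (0.139 ± 0.317 and 9.49 ± 9.11 CPM, -2.66), as was their receptor Lgr4 (8.93 ± 3.07 and 41.6 ± 10.7 CPM, -2.12). Rnf43, a ligase that removes Frizzleds from the surface and is itself a Wnt target, was epithelial (12.9 ± 5.91 and 0.143 ± 0.265 CPM, 3.54).

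The other target genes lay on both sides, as did all genes tested, of which 32.5% were called higher and 29.9% lower in the epithelium. Of the 8 that passed the filter, 3 were higher in the epithelium, unlike Axin2: Sp5 (85.8 ± 20.3 against 2.41 ± 3.15 CPM, log2 difference 5.14), Nkd1 (63.2 ± 21.3 against 12.7 ± 7.52, 2.33) and Ccnd1 (13.1 ± 9.39 against 2.43 ± 1.49, 1.85). The other 5 were lower, like Axin2, among them Tnfrsf19 (4.87 ± 3.84 against 109 ± 50.6 CPM, -4.36) and Cd44 (24.2 ± 22.4 against 67.8 ± 38.3, -1.66). Of the TCF factors and coactivators 4 of 7 were lower in the epithelium and none higher, with Tcf7 at 1.20 ± 0.993 against 8.83 ± 3.63 CPM (-2.20). Of all genes tested 62.4% passed in either direction.

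Over time in fibroblasts, 23 of the 56 other pathway genes tested passed between E18.5 and P28, 11 higher and 12 lower (33.6% of all genes tested passed, 2237 higher and 1783 lower; the list's median was -0.04, against 0.0068 over all genes tested). Sp5 and Nkd1, target genes like Axin2, were lower at P28 than at E18.5: Nkd1 went from 27.1 ± 0.266 to 6.72 ± 3.86 (SD, n = 2; log2 change -1.96, adjusted p = 0.00043), and Sp5 from 8.11 ± 2.43 to 0 in both libraries. The E18.5 mean of Sp5 was 15.6 times the limit of 3 reads over the P28 group, a ratio without the error of the mean. The courses of Nkd1 and Sp5 differed from that of Axin2, which was highest at P0.5. Nkd1 was already at 7.17 at P0.5 and then at 13.4 at P2, and Sp5 at 0 and then at 1.81. Wisp1, Wisp2, Cd44 and Myc, also counted as targets, rose. Wisp2 went from 0 in both libraries to 13.5 ± 1.17, a mean 25.5 times the limit of 3 reads over the E18.5 group. Cd44 went from 19.3 ± 1.07 to 91.8 ± 7.51. Rspo1, Rspo2 and Rspo4 fell and Rspo3 rose, from 1.76 ± 0.684 to 16.4 ± 6.86 (2.62). Ptk7, which fell by 1.31 over this span, was also the gene most like Wnt2 in the likeness comparison below.

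In the epithelium 14 of the 47 other pathway genes tested passed between E18.5 and P28, 6 higher and 8 lower, where 24.9% of all genes tested passed (median 0.01, against 0.03 over all genes tested). Wnt3a fell from 96.4 ± 1.08 to 31.0 ± 7.85 (SD, n = 2; log2 change -1.63, adjusted p = 0.0020). Ror2 fell from 34.4 ± 1.80 to 0 in both P28 libraries, with 16.5 ± 4.16 at P0.5, 12.6 ± 4.76 at P2 and 5.69 ± 1.72 at P7 between. The E18.5 mean of Ror2 was 68.1 times the limit of 3 reads over the P28 group. Ccnd1, a cell-cycle gene and Wnt target, rose from 3.99 ± 0.601 to 25.6 ± 1.53 (2.42), and Cd44, which leukocytes also express, from 5.32 ± 3.95 to 68.9 ± 1.91 (3.63), alongside the leukocyte marker sums given above, whose part was not tested.

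For each member, in the cell type where its level was higher and if its mean there was at least 3, the genes whose values ran most like it over the libraries were listed, from 4244 genes in fibroblasts (4245 for Wnt4) and 4309 in the epithelium with a mean of at least 20. These are Pearson correlations of log2 values over 11 fibroblast or 10 epithelial libraries that share stages, sorting and depth, given as a description. In fibroblasts Wnt2 was most like Ptk7 (r = 0.93), Pdxp (0.92) and Neo1 (0.91), Sfrp1 most like Col17a1 (0.95), Sts (0.94) and Arhgap10 (0.92), Axin2 most like Ppp1r14a (0.95), Gja5 and Nap1l1 (0.94 each), and Dkk3 most like Angptl4, Dpysl3 (0.92 each) and Pdia4 (0.91). Wnt5a had lower values, with Sptlc1 (0.87), Saysd1 (0.86) and Hps5 (0.85), and Wnt4 was most like Cd81 (0.94), Aggf1 (0.91) and Sgcb (0.90). Wnt4 reached the mean of 3 only through the P56 library, at 13.4 against 0.355 to 4.49 before. Its correlations without that library were not computed. In the epithelium Wnt7b was most like Sema3a (0.93), Wwtr1 and Ptpn14 (0.92 each), and Wnt11 most like Bre, Paqr7 (0.87 each) and Aldh3a1 (0.86).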

How the data were processed

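Polyadenylated RNA of sorted lung cells was profiled by 3'SAGE-seq, which counts 1 short tag per transcript, on an Ion Proton sequencer, per the labels' protocols. The submitters' processing notes name Bowtie2 2.2.5, R 3.4.0 and the mm10 build; the normalisation and the strand of counting are not given in the sources used here. Per gene the authors deposited a normalised signal: in each library 100% of its values are whole multiples, within 0.01 read, of what 1 read is worth, so tag counts could be recovered from the authors' deposited signal. Epithelial and fibroblast values were put on separate scales by the authors' normalisation.

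Within a cell type, log2(deposited value + 1) of genes at 3 or more in at least 2 libraries was tested with limma 3.58.1 (R 4.3.3, trend, two-sided, all stages in 1 fit, Benjamini-Hochberg adjustment over all genes tested, threshold 0.05). Cell types were compared on recovered reads of the 20004 shared genes as log2(CPM + 1) with TMM, over 20 libraries. Alternatives were edgeR 4.0.16 (quasi-likelihood test) and DESeq2 1.42.0 on the recovered reads, other pseudocounts, filters and scalings, a replicate block, leaving out each library and, added after seeing the data, leaving out P28. The fits were tested on simulated data, in which no gene with as few reads as Wnt4, Wnt7b, Wnt11 or Wif1 was changed. Same-numbered libraries did not deviate together (r of -0.0621 to 0.0738 over 10 epithelial pairs and -0.0377 to 0.0404 over 10 fibroblast pairs).

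The members and gene lists were chosen with earlier results of these data known. Named genes are the 10 members, of each other list up to 3 passing genes with the smallest p in each direction (more where the text gives a complete count), and the 3 genes most like each member.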

Additional observations from a re-analysis of the deposited data

Results flagged for a closer look

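The change from E18.5 to P28 differed between epithelium and fibroblasts, by the interaction term in limma, for 16 of the 69 Wnt pathway genes tested (9 members and 60 others), where 15.1% of all genes tested passed. The values are the epithelial minus the fibroblast log2 change. Among the members these were Wnt7b (-2.12), Dkk3 (-1.82) and Wnt2 (1.66), with 1, 12 and 7 reads in all libraries of the cell type where each is low, so their terms follow the other cell type's values; edgeR and DESeq2 called 0 members. Receptors and receptor-binding genes were Ror2 (-4.03), Fzd2 (-1.87), Fzd5 (-1.04), Ror1 (2.32) and Kremen1 (-2.57). Of the R-spondins, Rspo3 stood at -3.65, Rspo4 at 1.97 and Rspo1 at 2.09. The ligand Wnt9a stood at -3.00, the coactivator Pygo1 at 1.99, and the target genes Wisp2 at -3.84, Sp5 at 2.92 and Ccnd1 at 3.20. Wisp2, Rspo4, Rspo1 and Rspo3 gave 0, 1, 11 and 16 reads in the epithelium. These genes passed the filter through fibroblasts alone, so their terms follow the fibroblast values.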

How the results depend on the processing

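Groups held 2 libraries and low genes a few reads, which limits every call between stages. Of 69 calls on the members, 46 were kept in all alternatives and 23 were lost in at least 1. In the epithelium, the member called from P7 to P28 was lost (0 called) with a pseudocount of 0.25 and with no filter on low values (0 to 1 when a library was left out). From E18.5 to P28, 1 of 2 was called with DESeq2, with a pseudocount of 4 and with no filter, 0 with a filter at 10, where Wnt7b and Wif1 were not tested, and 1 when any library of these stages was left out. Of the 3 called over all stages, 0 were called with DESeq2 and with no filter, 1 with the filter at 10, and 1 to 3 with a library left out.

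In fibroblasts, 1 of 2 was called from E18.5 to P0.5 with DESeq2 and 0 with no filter (0 to 1 with a library left out), 1 of 3 from P0.5 to P2 with no filter (0 to 2), 0 of 2 from P2 to P7 with no filter (1 to 2), and 3 of 5 from P28 to P56 with a pseudocount of 0.25 and with no filter. Without the filter 22876 in place of 12143 epithelial genes entered the adjustment. The interaction gave 0 calls with edgeR and with DESeq2, 1 with a pseudocount of 0.25 and 1 to 3 with a library left out; the Wnt2 term reversed with edgeR (-0.36). The cause was not tested.

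The cell-type differences of Wnt2, Wnt5a, Wnt7b, Sfrp1, Dkk3 and Axin2 over 5 stages were kept in every alternative that tested them (the filter at 10 leaves out Wnt7b). With the replicate number as a block, which nothing shows to pair the libraries, the interaction called 2 members in place of 3 (Wnt2 adjusted p = 0.0508), and no other count of called members changed.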

Other observations

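In the P56 fibroblast library, several Wnt receptors and ligands outside the 10 members stood above both P28 libraries, and other receptors stood below both. Fzd7, a receptor, was at 243 against 28.0 ± 0.0977 (SD, n = 2; log2 change 3.07), Fzd8 at 90.2 against 8.76 ± 2.23 (3.24), and Wnt5b, a relative of Wnt5a, at 18.3 against 1.14 ± 1.20 (3.29). On the lower side, Fzd5 was at 29.3 against 94.4 ± 22.3, Fzd4 at 42.0 against 83.9 ± 13.3 and Ryk at 103 against 216 ± 63.3. Of 56 other pathway genes tested, 14 were higher and 7 lower in this library (limma), where 31.2% of all genes tested passed, 12.2% higher and 19.1% lower. With TMM scaling the split over all genes was 1894 higher and 1815 lower, and with 1 library at P56 stage and library cannot be told apart. Rspo2 in fibroblasts stood at 4.81 ± 1.64 at E18.5, 25.7 ± 7.37 at P7 and 0.399 ± 0.564 at P28, a log2 change of -4.29 from P7 (adjusted p = 9.55e-07, limma).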
